A study of Mus musculus with 6 samples.

Results

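The solute carriers are membrane proteins that move amino acids, sugars, ions, metals, vitamins and metabolites across the plasma membrane and the membranes of organelles. Genes of this superfamily were taken by symbol, as Slc followed by a family number, the letter a and a member number, or as Slco for the organic anion transporters. Only probe sets with exactly 1 gene symbol were used, and the brightest probe set stood for each gene. This gave 98 probe sets of 95 genes, out of 8997 probe sets and 5780 named genes in all. The symbol rule also took in Slc9a3r1 and Slc9a3r2, which encode scaffold proteins that bind an ion exchanger and are not transporters. It left out 12 further Slc genes whose symbols carry another letter, which are described with the nucleotide sugar carriers.

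The samples were radii and ulnae, the long bones of the forearm, from newborn mice of strain 129sv. Wild-type bone (3 arrays) was compared with bone of littermates carrying the Tnni2 del175k mutation (3 arrays). Tnni2 encodes troponin I of fast skeletal muscle, and the comparison asks which genes differ in mutant bone. Whether the mutants carried 1 or 2 mutant alleles, and whether each array held RNA of a single mouse, was not stated. The p-values therefore reflect only the variation among these 6 arrays, and some of it may be technical.

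Solute carriers are grouped in families by sequence, and a family often shares a kind of substrate. Bone cells depend on them in several ways. Osteoblasts and chondrocytes take up amino acids such as glutamine to build collagen, phosphate carriers supply the ion that mineral is made of, and nucleotide sugar carriers feed the Golgi enzymes that glycosylate matrix proteins. Red cell precursors of the marrow use their own set for iron, glycine and bicarbonate, and muscle fibres attached to the bone use others for glucose and for exchange across the mitochondrial membrane.

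Values are intensities, the summarised brightness of a probe set on a linear scale, and differences are given on the log2 scale as mutant minus wild-type ± the SE that limma moderates over all probe sets. Array medians lay between 39.6 and 48.4, the lowest being that of wild-type replicate 1. That array was the lowest of the 6 for 49 of the 95 members (51.6%) and for 50.0% of all probe sets. On at least 3 arrays all probe sets were at 20 or above, which shows a filter by level, and 20 of the 95 members were under 20 on at least 1 array. Probe sets differ in how strongly they bind, so no level of a gene is set against that of another gene. Markers of osteoblasts and osteocytes (7 of 12 listed were measured, among them Col1a1 and Alpl) summed to between 11332 and 14447 per array, and those of chondrocytes (14 of 14) to between 5804 and 8938. Such a sum follows its brightest probe sets, in the first list those of Col1a1 and Col1a2, and says little of the dimmer ones. In these bulk samples fewer cells of a type and less RNA per cell cannot be told apart.

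Most members had slightly higher means in mutant bone, and in none did the difference pass. Of the 95 genes 61 had a higher and 34 a lower mean in the mutants. All probe sets leaned the same way, with 56.7% higher. The median log2 difference was 0.098 over the members and 0.045 over all probe sets, and the members ranged from -0.55 to 0.85. At a limma adjusted p of 0.05 the test called 0 members and 0% of all probe sets. The smallest adjusted p among the members was 0.595, for the iron exporter gene Slc40a1. At an unadjusted p under 0.05 there were 11 members (11.6%), against 7.44% of all probe sets. Of these, 9 were higher (9.47% of the members), against 5.74% of all probe sets, and 2 were lower (2.11% of the members), against 1.7%. The 3 mutant arrays were all higher than the 3 wild-type arrays in 12 members (12.6%), against 9.18% of all probe sets, and below them in 3 members (3.16%), against 3.89%. The 12 include Slc2a3, whose order the filter by level fixed, since all its wild-type values were under 20. They also include Slc7a2 and Slc25a36, which the filter kept only because mutant arrays reached 20. Both were among the 9 higher members at an unadjusted p under 0.05. Slc27a3, kept only because wild-type arrays reached 20, was among the 2 lower ones. These shares lie close to the background. Over all probe sets, 516 were higher and 153 lower at an unadjusted p under 0.05, and this split was 532 to 322 with quantile normalization and 570 to 294 with median centring, where members with higher means numbered 53 and 55 of the 95. Means differed by 1.5-fold or more in 7 members (7.37%), against 7.95% of all probe sets.

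**Figure D1:**
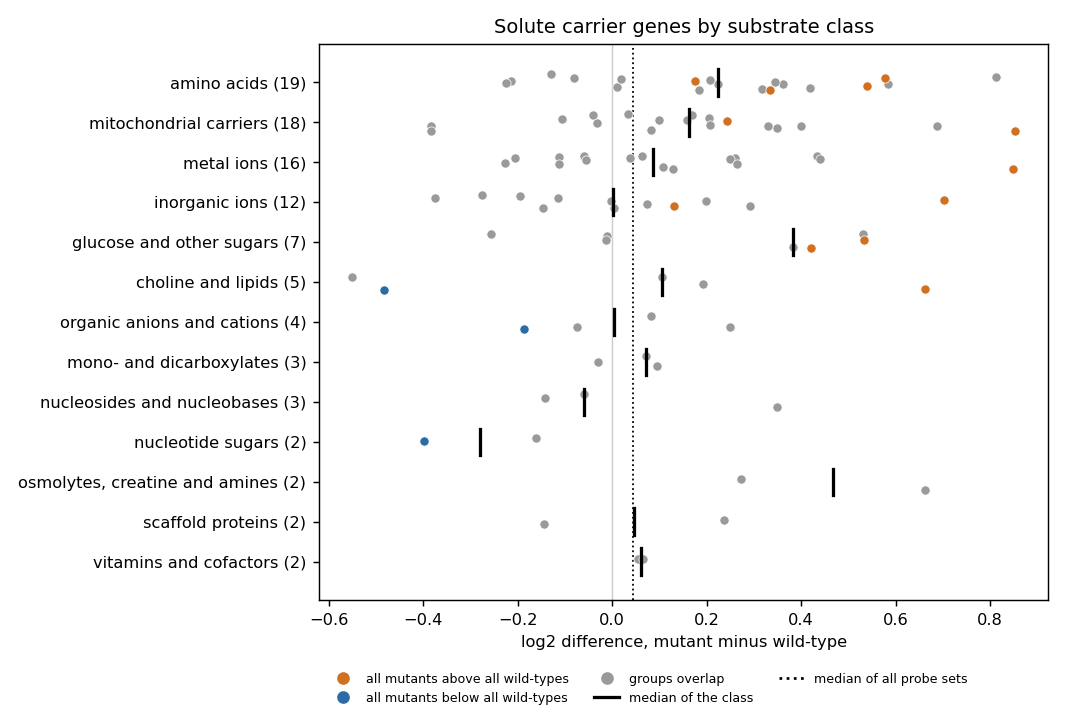
Log2 difference (mutant minus wild-type, horizontal axis) of each of the 95 members, arranged by substrate class with the number of genes in parentheses; black bars are class medians and the dotted line is the median of all probe sets (0.045). The 12 members in orange, among them Slc2a3 whose order the filter by level fixed, had all mutant values above all wild-type values. The 3 in blue had them below. Amino acid carriers lie mostly to the right of the line. Of the 7 sugar carriers 4 had higher means (57.1%), against 56.7% of all probe sets.

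Leaving out 1 array changed these counts. Without wild-type replicate 1 the members were divided into 48 higher and 47 lower, with a median of 0.013 against -0.033 over all probe sets. Groups did not overlap in 13 members higher (13.7%), against 10.7% of all probe sets, and in 15 lower (15.8%), against 12.5%. Without mutant replicate 3 the groups did not overlap in 29 members higher (30.5%), where all probe sets stood at 15.8%. In 13 members (13.7%) the mutants were then lower, against 12.4% of all probe sets.

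Amino acid carriers made up the class with most members. Of 19 genes 15 had higher means in the mutants, with a class median of 0.22, and 0 passed. With quantile normalization or median centring 13 of the 19 were higher, with medians of 0.18 and 0.17. Leaving out wild-type replicate 1 gave a median of 0.13, leaving out mutant replicate 1 gave 0.15 and leaving out mutant replicate 3 gave 0.36. In 4 of the 19 (21.1%) the groups did not overlap, all with higher mutant values, against 9.18% of all probe sets. The 4 include Slc7a2, which the filter by level kept only through mutant arrays. Slc1a5, which exchanges glutamine and other neutral amino acids across the plasma membrane, had intensities of 46.3, 68.4 and 37.9 in wild-type replicates 1, 2 and 3 and 110.5, 93.5 and 62.99 in mutant replicates 1, 2 and 3. The array of wild-type replicate 2 reached above that of mutant replicate 3, so the groups overlapped. Its log2 difference was 0.81 ± 0.29 (limma adjusted p = 0.638).

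Slc38a3, for a sodium-coupled glutamine carrier that is also found in muscle, was at 20.7, 24.3 and 25.02 in wild-type replicates 1, 2 and 3 and 38.4, 33 and 32.98 in mutant replicates 1, 2 and 3. Here every mutant value lay above every wild-type value, and the mutants were close to each other. The difference was 0.58 ± 0.19 (adjusted p = 0.637). Slc7a2, which imports arginine and other cationic amino acids, was at 14.1, 20.9 and 18.8 in wild-type replicates 1, 2 and 3 and 28.5, 27.6 and 21.6 in mutant replicates 1, 2 and 3. The groups lay apart by a narrow margin, since mutant replicate 3 was just above wild-type replicate 2. Wild-type replicates 1 and 3 were under 20, so the filter by level kept this gene only because mutant arrays reached 20. Its difference was 0.54 ± 0.23 (adjusted p = 0.667), and these probe sets are dim. Slc15a4, a carrier of histidine and peptides in endosomes and lysosomes, and Slc66a2, which was placed in this class by family alone, were the other members whose groups did not overlap. Their differences were 0.33 ± 0.21 and 0.18 ± 0.18.

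The remaining members of the Slc38 and Slc36 families, which carry small neutral amino acids, overlapped between the groups. Slc38a4 was at 0.32 ± 0.23, Slc38a1, an importer of glutamine, at 0.36 ± 0.27, Slc38a7, a glutamine carrier of lysosomes, at 0.22 ± 0.22 and Slc36a4 at 0.18 ± 0.22. Slc38a10 and Slc36a2 had lower means, at -0.23 ± 0.20 and -0.21 ± 0.29, and Slc7a6, which exchanges cationic for neutral amino acids, was at 0.019 ± 0.27.

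Several carriers of large or small neutral amino acids were high on mutant replicates 1 and 2 and not on mutant replicate 3. Slc43a1, for a sodium-independent carrier of leucine and related amino acids, was at 48.5, 32.9 and 47.98 in wild-type replicates 1, 2 and 3 and 95.4, 77.97 and 34.6 in mutant replicates 1, 2 and 3. Mutant replicates 1 and 2 were above every wild-type array, while mutant replicate 3 was at the low end of the wild-type range. Slc7a5, the light chain of the main exchanger of large neutral amino acids, was at 72.5, 83.6 and 87.2 in wild-type replicates 1, 2 and 3 and 144, 113 and 50.2 in mutant replicates 1, 2 and 3. Its partner Slc3a2, the heavy chain that brings several such exchangers to the cell surface, was at 139.6, 235 and 143 in wild-type replicates 1, 2 and 3 and 282, 243 and 140.4 in mutant replicates 1, 2 and 3. In both genes mutant replicates 1 and 2 again stood highest, and mutant replicate 3 was within or below the wild-type values. Slc38a2, a sodium-coupled carrier that starved cells induce, was at 123, 215 and 190.0 in wild-type replicates 1, 2 and 3 and 288, 233 and 179 in mutant replicates 1, 2 and 3, with the same arrays on top. The differences of these genes were 0.58 ± 0.36 for Slc43a1, 0.21 ± 0.35 for Slc7a5, 0.35 ± 0.31 for Slc3a2 and 0.42 ± 0.27 for Slc38a2 (adjusted p from 0.723 to 0.891). Without mutant replicate 3 they were 1.02, 0.66, 0.65 and 0.60, and without mutant replicate 1 that of Slc7a5 was -0.10.

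This order of the arrays ran through the class. Mutant replicate 1 was the highest of the 6 arrays in 13 of the 19 amino acid carriers, compared with 20.9% of all probe sets. Mutant replicate 1 was the highest and mutant replicate 3 the lowest of the mutants in 13 of the 19, compared with 18.8% of all probe sets. Over all 95 members, amino acid carriers included, these 2 counts were 37 and 35. Relative to each gene's mean over the 6 arrays, the median carrier had log2 deviations of -0.36, 0.0087 and -0.058 in wild-type replicates 1, 2 and 3, and of 0.42, 0.14 and -0.057 in mutant replicates 1, 2 and 3. Without mutant replicate 3 the groups did not overlap, with higher mutants, in 10 of the 19 (52.6%), against 15.8% of all probe sets. The order of arrays was noticed in these data and then counted, so the counts describe these samples.

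In their medians, genes that glucocorticoids induce had the same order among the mutant arrays. Of 16 listed genes 14 were measured, all 14 had higher means in the mutants, against 56.7% of all probe sets, and 0 passed. The list was chosen with earlier results of these data known. Single genes departed from the order: Dusp1 was highest on mutant replicate 3, and Mt2, Lcn2 and Pdk4 were higher on mutant replicate 2 than on mutant replicate 1. Their median log2 deviations were -1.07, -0.47 and -0.78 in the wild-type and 1.28, 1.20 and -0.32 in the mutant replicates, in the same order. Their summed intensity ranged from 751 to 1337 in the wild-type samples and from 1148 to 3048 in the mutants. Ddit4, an inhibitor of mTORC1 signalling, differed by 2.14 ± 0.33 and Tsc22d3, which encodes a glucocorticoid-induced leucine zipper protein, by 2.11 ± 0.44. The medians of both lists were thus high on mutant replicates 1 and 2. The part of these genes in the values of the amino acid carriers was not tested.

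**Figure D2:**
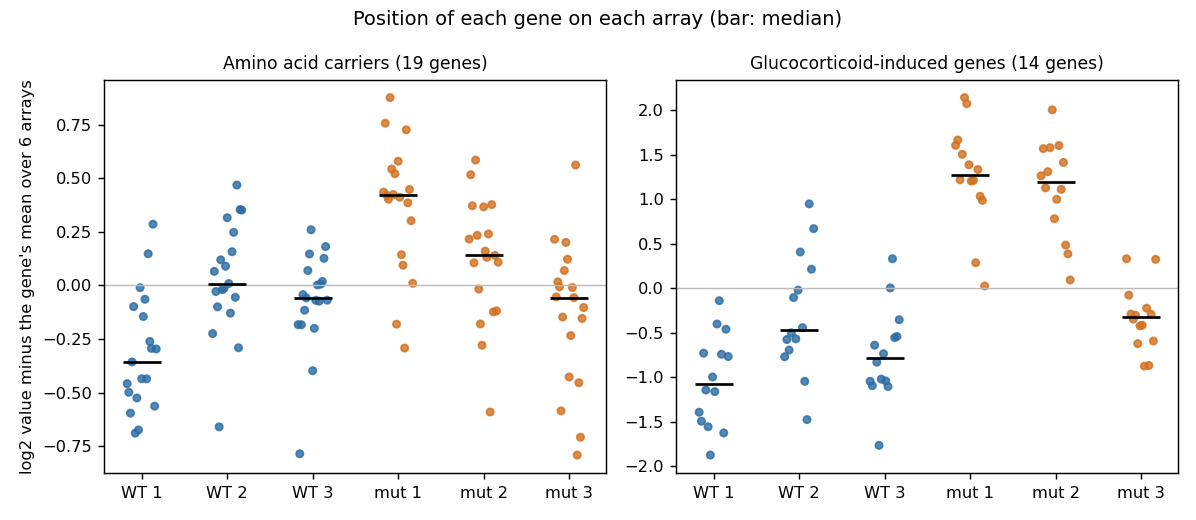
Log2 intensity of each gene minus its own mean over the 6 arrays (vertical axis), for 19 amino acid carriers on the left and 14 glucocorticoid-induced genes on the right, by array (WT, wild-type; mut, mutant; bars are medians; the vertical scales differ). Medians of the amino acid carriers are 0.42, 0.14 and -0.057 on the mutant arrays, and those of the glucocorticoid-induced genes are 1.28, 1.20 and -0.32.

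Carriers known as targets of the amino acid response, the programme led by the transcription factor ATF4, were measured for 7 of 9 listed genes. Of these 5 had higher and 2 lower means, with 0 past the test and groups overlapping in all 7. Slc1a5, Slc3a2, Slc7a5 and Slc38a2 are given above. Slc1a4, for an exchanger of alanine, serine and cysteine, differed by 0.0098 ± 0.22 and changed direction with quantile normalization (-0.079) and median centring (-0.047). Slc7a1, for the common arginine importer, was at -0.13 ± 0.28, and Slc6a9, for a glycine carrier, at -0.080 ± 0.31. Of the rest of the programme 14 of 20 listed genes were measured, 7 with higher and 7 with lower means, a median of 0.011 and 0 past the test. The groups did not overlap in 2 of the 14, both with lower mutants, against 3.89% of all probe sets: Phgdh (-0.42 ± 0.21) and Psat1 (-0.29 ± 0.19), enzymes of serine synthesis. Its members of smallest p were the lipoprotein receptor gene Vldlr (0.88 ± 0.33) and Aldh18a1 (-0.69 ± 0.30), an enzyme of proline synthesis.

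Sequences just upstream of the start site are shown for 4 members: the amino acid carriers Slc43a1 and Slc3a2, which were both highest on mutant replicates 1 and 2, the mitochondrial carrier Slc25a36, which had the largest difference of all members, and the glucose carrier Slc2a1. Each runs over 250 bases upstream of the gene's start (RefSeq, GRCm38.p6), 5′ to 3′ on the gene's strand. Capitals mark the E-box CACGTG and the hypoxia response element core ACGTG, on either strand. The core is contained in the E-box, so each E-box also counts as a match to it. All 4 windows shown hold ACGTG, which was found in only 24 of the 69 members searched, so they do not stand for the members at large.
Slc43a1, chr2:84840073-84840322, + strand: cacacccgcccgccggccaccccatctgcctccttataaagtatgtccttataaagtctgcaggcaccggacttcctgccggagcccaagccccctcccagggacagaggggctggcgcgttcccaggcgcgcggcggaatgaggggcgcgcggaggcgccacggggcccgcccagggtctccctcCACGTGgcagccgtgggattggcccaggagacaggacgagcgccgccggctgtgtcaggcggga
Slc3a2, chr19:8713898-8714147, - strand: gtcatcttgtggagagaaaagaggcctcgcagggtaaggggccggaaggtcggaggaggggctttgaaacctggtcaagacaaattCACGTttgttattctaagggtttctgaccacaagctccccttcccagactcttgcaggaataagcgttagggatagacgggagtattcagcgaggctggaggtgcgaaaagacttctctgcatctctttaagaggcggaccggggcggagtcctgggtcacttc
Slc25a36, chr9:97111042-97111291, - strand: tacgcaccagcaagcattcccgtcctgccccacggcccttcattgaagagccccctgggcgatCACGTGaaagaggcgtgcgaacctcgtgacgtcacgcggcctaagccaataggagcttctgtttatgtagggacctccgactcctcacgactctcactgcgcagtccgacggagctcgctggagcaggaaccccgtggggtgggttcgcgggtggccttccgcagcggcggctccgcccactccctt
Slc2a1, chr4:119108495-119108744, + strand: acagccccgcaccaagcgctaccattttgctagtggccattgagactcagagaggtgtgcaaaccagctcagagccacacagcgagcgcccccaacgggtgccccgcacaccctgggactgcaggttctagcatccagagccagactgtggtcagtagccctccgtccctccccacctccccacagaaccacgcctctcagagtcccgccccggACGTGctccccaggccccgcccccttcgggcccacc

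Windows of 69 of the 95 members were searched, 94 in all because some genes have several starts. Some members had no window in the set used. Members on a single chromosome were also left out of this search, while the windows over all genes kept that chromosome. The shares of the members and of all genes thus come from unlike sets. CACGTG was found in 14 of the 94 windows (14.9%), against 6.02% of 32851 windows of the same length over all genes, and ACGTG in 27 (28.7%), against 16.6%. TGATGNAA, the core of the amino acid response element, was found in 4 windows (4.26%), against 3.45%, and in 0 of the 5 amino acid response targets that had a window. AGATAA, the core of a GATA site, was found in 4 windows (4.26%), against 9.99%. All motifs were searched on both strands. A match is a description of the letters only, and base composition was not matched between the members and all genes.

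Of 7 carriers of glucose and other sugars 4 had higher and 3 lower means, with a median of 0.38 and 0 past the test. Array weights gave a median of 0.18, and leaving out wild-type replicate 1 gave 0.17. Slc2a4, the insulin-responsive glucose carrier of muscle and fat, was at 34.7, 33.4 and 41.4 in wild-type replicates 1, 2 and 3 and 70.2, 50.5 and 40.9 in mutant replicates 1, 2 and 3. Mutant replicates 1 and 2 were above all wild-type arrays, while mutant replicate 3 was level with wild-type replicate 3. The difference was 0.53 ± 0.24 (limma adjusted p = 0.674). Muscle fibre markers (12 of 15 listed) summed to 4025 to 8223 in the wild-type and to 5349 to 6710 in the mutant samples. The part of muscle content in the level of Slc2a4 was not tested.

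Slc37a2, for an exchanger of sugar phosphates found in macrophages and osteoclasts, was at 36.2, 35.6 and 43.2 in wild-type replicates 1, 2 and 3 and 51.8, 52.3 and 62.1 in mutant replicates 1, 2 and 3. Every mutant array was above every wild-type array, and here mutant replicate 3 was the highest. Its difference was 0.53 ± 0.20 (adjusted p = 0.657), with values from 0.44 to 0.62 over all alternatives. The sum of the osteoclast markers (8 of 14 listed) also stood apart, at 741 to 1251 in the wild-type and 1398 to 1959 in the mutant samples. It follows the brightest of them, Ctsk, Acp5 and Mmp9. In 4 of the 8 the groups did not overlap, all with higher mutants, against 9.18% of all probe sets. Nfatc1 had a lower mean (-0.12 ± 0.28). The part of osteoclast number in the level of Slc37a2 was not tested.

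Slc2a1, the general glucose carrier that hypoxia can induce, was at 87.7, 184 and 99.9 in wild-type replicates 1, 2 and 3 and 169.9, 138 and 152 in mutant replicates 1, 2 and 3. Wild-type replicate 2 was the highest of all 6 arrays, and the difference was 0.38 ± 0.28. Slc2a3, the high-affinity glucose carrier, was at 12.1, 19.997 and 19.6 in wild-type replicates 1, 2 and 3 and 23.96, 20.1 and 23.7 in mutant replicates 1, 2 and 3. All its wild-type values were under 20, so the filter by level kept the gene only because every mutant array reached 20, and that filter alone fixed that the groups did not overlap. Its difference of 0.42 ± 0.24 was 0.18 without wild-type replicate 1. The lactate carriers lay near 0, with Slc16a3, which exports lactate from glycolytic cells, at 0.071 ± 0.23 and Slc16a1, which works in both directions, at -0.030 ± 0.22. Among other hypoxia targets 12 of 20 listed were measured, 7 higher and 5 lower with a median of 0.10 and 0 past the test, and those of smallest p were the prolyl hydroxylase gene Egln3 (1.41 ± 0.40) and the mitophagy gene Bnip3 (1.36 ± 0.47). The remaining sugar carriers, Slc50a1, Slc37a3 and Slc2a13, had lower means, at -0.26, -0.013 and -0.010.

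**Figure D3:**
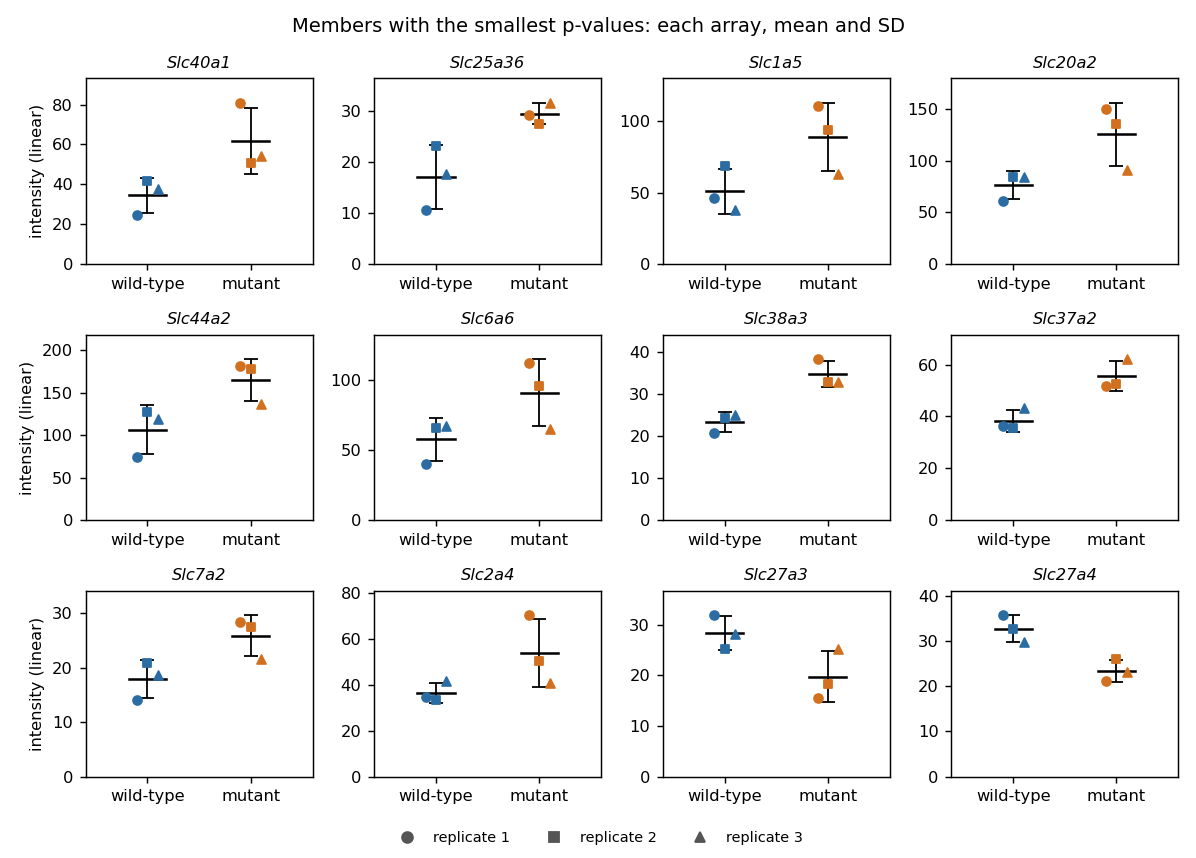
Intensity (linear, vertical axes from 0) on each array for the 12 members with the smallest p-values, wild-type in blue and mutant in orange, with the mean and SD of 3 arrays in black and a symbol for each replicate. Slc40a1, Slc25a36, Slc20a2, Slc44a2, Slc38a3, Slc37a2 and Slc7a2 have all mutant values above all wild-type values, Slc27a4 has them below, and the groups of Slc1a5, Slc6a6, Slc2a4 and Slc27a3 overlap.

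Among 12 carriers of inorganic ions, 6 had higher and 6 lower means, the median was 0.0012, and 0 passed. The sign of this median turned with quantile normalization (-0.073), median centring (-0.055) and array weights (-0.093), and without wild-type replicate 1 (-0.052), wild-type replicate 2 (-0.011) or mutant replicate 1 (-0.060). Slc20a2, for a sodium-coupled phosphate carrier of many tissues, was at 60.4, 84.2 and 84.3 in wild-type replicates 1, 2 and 3 and 149.9, 135 and 91.02 in mutant replicates 1, 2 and 3. Every mutant value was above every wild-type value, though mutant replicate 3 was near the wild-type replicates 2 and 3. The difference was 0.70 ± 0.25 (limma adjusted p = 0.638), and it stayed between 0.54 and 0.92 over all alternatives. Slc20a1, the related phosphate carrier that osteoblasts and chondrocytes also express, was at 23.97, 63.97 and 56.8 in wild-type replicates 1, 2 and 3 and 52.8, 48.5 and 39.8 in mutant replicates 1, 2 and 3. Wild-type replicate 1 was far below the other arrays, and the difference of 0.075 ± 0.35 became -0.37 without it. Whether the pair differed from each other in the mutants was not tested.

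Slc4a2, the anion exchanger through which osteoclasts expel bicarbonate, had nearly equal means (0.0042 ± 0.20), and its sign turned with quantile normalization (-0.054) and median centring (-0.052). Slc12a7, a potassium-chloride cotransporter, was the other ion carrier whose groups did not overlap, with a difference of 0.13 ± 0.18. Slc8a3, a sodium-calcium exchanger of muscle and nerve, was at -0.37 ± 0.25 and Slc9a9, a sodium-proton exchanger of endosomes, at -0.28 ± 0.22. These were the lowest differences of the class, and both genes were under 20 on some arrays. Of the cation-chloride cotransporters, Slc12a2, which brings chloride into cells with sodium and potassium, was at 0.29 ± 0.28, Slc12a4, which lets it out with potassium, at -0.20 ± 0.21 and Slc12a9 at 0.20 ± 0.25. The anion exchanger gene Slc4a3 was at -0.12 ± 0.18 and Slc9a8, a sodium-proton exchanger of the Golgi, at -0.0018 ± 0.23.

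Metal carriers numbered 16, with 10 higher, 6 lower, a median of 0.086 and 0 past the test. The sign of this median turned with array weights (-0.050; 7 higher, 9 lower), without wild-type replicate 1 (-0.019; 5 higher, 11 lower) and without mutant replicate 1 (-0.0077; 8 higher, 8 lower). Slc40a1, for ferroportin, the exporter of non-heme iron from cells, had the smallest p of all members. It was at 24.5, 41.5 and 37.5 in wild-type replicates 1, 2 and 3 and 81.03, 50.8 and 54.2 in mutant replicates 1, 2 and 3. All mutant arrays were above all wild-type arrays, with mutant replicate 1 far above the rest. The difference was 0.85 ± 0.27 (limma adjusted p = 0.595), or 1.8-fold, and it ranged from 0.62 to 0.999 over all alternatives. Macrophages and red cell precursors are rich in ferroportin. Macrophage and neutrophil markers (8 of 14 listed) summed to 275 to 485 in the wild-type and 353 to 420.4 in the mutants, so they overlapped. The part of these cells in the level of Slc40a1 was not tested.

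Other carriers of iron, heme and zinc differed less. Slc11a2, which imports ferrous iron, was at 0.037 ± 0.21, with its sign turned by quantile normalization (-0.045) and median centring (-0.020), and the heme carrier gene Slc48a1 was at 0.13 ± 0.20. Slc39a1, a zinc importer of the plasma membrane, was at 0.25 ± 0.22 and 0.28 ± 0.26 on its 2 probe sets. Slc39a14, which imports zinc, manganese and iron, was at 20.9, 40.6 and 34.8 (wild-type) and 51.04, 39.5 and 25.3 (mutant), and its difference of 0.26 ± 0.32 became -0.018 without wild-type replicate 1. Slc49a4, a lysosomal membrane protein that was placed here by family, was at 0.44 ± 0.23. Of the magnesium carriers, Slc41a1 was at 0.43 ± 0.30 and the mitochondrial Slc41a3 at -0.23 ± 0.22. The zinc carriers of the secretory pathway Slc39a7 and Slc39a13, which connective tissue needs for collagen maturation, had lower means, at -0.21 and -0.11. Zinc exporters into vesicles and the Golgi were at 0.26 ± 0.25 (Slc30a4), 0.11 ± 0.26 (Slc30a5) and -0.061 ± 0.26 (Slc30a7). The zinc carrier gene Slc39a9 was at 0.064 ± 0.20, the copper importer gene Slc31a1 at -0.056 ± 0.25 and the magnesium carrier gene Slc41a2 at -0.11 ± 0.28. The groups overlapped in all of these.

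Mitochondrial carriers of the Slc25 family exchange nucleotides, phosphate and metabolites across the inner membrane. Of 18 genes 13 had higher and 5 lower means, with a median of 0.16 and 0 past the test. The median was 0.066 with quantile normalization, 0.11 with median centring, 0.026 with array weights (10 higher, 8 lower), 0.052 without wild-type replicate 1 (10 higher, 8 lower), 0.077 without wild-type replicate 2 and 0.25 without wild-type replicate 3. Slc25a36, a carrier of pyrimidine nucleotides, had the largest difference of all 95 members. Its intensities were 10.6, 23.1 and 17.7 in wild-type replicates 1, 2 and 3 and 29.2, 27.5 and 31.7 in mutant replicates 1, 2 and 3. The mutants were close together and above every wild-type array, and the wild-type arrays were spread from low to moderate. Wild-type replicates 1 and 3 were under 20, so the filter by level kept this gene only because mutant arrays reached 20. The difference was 0.85 ± 0.28 (limma adjusted p = 0.61), or 1.81-fold, and 0.54 without wild-type replicate 1, its lowest array. Slc25a24, a carrier of ATP-Mg and phosphate, was the other gene of the class whose groups did not overlap (0.24 ± 0.19).

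Slc25a12, the aspartate-glutamate carrier of muscle and nerve, was at 32.6, 74.8 and 83.1 in wild-type replicates 1, 2 and 3 and 109, 97.5 and 79.9 in mutant replicates 1, 2 and 3. Wild-type replicate 1 was far below the other arrays, and the difference of 0.69 ± 0.34 was 0.26 without it. The carriers that serve ATP synthesis overlapped between the groups. Slc25a4, the ADP/ATP exchanger of muscle and heart, was at 0.16 ± 0.21, Slc25a5, its form in dividing cells, at 0.098, 0.060 and 0.031 on its 3 probe sets, and the phosphate carrier gene Slc25a3 at -0.032 ± 0.21. The lowest values were those of Slc25a10 (-0.38 ± 0.23), which exchanges dicarboxylates for phosphate, and Slc25a1 (-0.38 ± 0.23), which exports citrate for fatty acid synthesis. The class also holds Slc25a17, a carrier of peroxisomes (0.40 ± 0.29), and Slc25a46, a protein of the outer membrane (0.35 ± 0.24). Slc25a51, which brings NAD into mitochondria, was at 0.33 ± 0.23, Slc25a32, a carrier of folate or flavin, at 0.21 ± 0.27 and Slc25a44, a carrier of branched-chain amino acids, at 0.17 ± 0.19. Slc25a20, which exchanges acylcarnitines for carnitine, was at -0.040 ± 0.24 and Slc25a11, which exchanges malate and oxoglutarate, at 0.034 ± 0.28.

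Carriers known from red cell precursors shared an order of arrays that crossed the genotypes. All 7 measured of 9 listed genes had wild-type replicate 2 as the lowest of the wild-type arrays and mutant replicate 1 as the highest of the mutants, a pattern held by 5.72% of all probe sets. It was noticed in these data before it was counted. Slc4a1, for band 3, the bicarbonate-chloride exchanger of the red cell membrane, was at 172, 50.02 and 162 in wild-type replicates 1, 2 and 3 and 262, 83.9 and 46.95 in mutant replicates 1, 2 and 3. Its lowest and highest arrays were both mutants, and the difference was -0.15 ± 0.63, less than its SE. Slc25a37, for mitoferrin, which brings iron into mitochondria for heme synthesis, was at 26.7, 25.6 and 38.1 in wild-type replicates 1, 2 and 3 and 37.2, 20.2 and 27.8 in mutant replicates 1, 2 and 3 (-0.11 ± 0.27). Slc6a9, which supplies glycine to the same pathway, was at 32.3, 21.6 and 28.9 in wild-type replicates 1, 2 and 3 and 36.1, 29.2 and 16.2 in mutant replicates 1, 2 and 3. Both genes overlapped widely between the groups. Slc25a38, a mitochondrial glycine carrier needed for heme, was at 0.21 ± 0.23 and Slc25a39, a mitochondrial glutathione carrier, at 0.083 ± 0.20.

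Red cell markers had mutant replicate 1 highest and wild-type replicate 2 lowest of all arrays in their sum. The 3 measured of 16 listed, Alas2, Sptb and Tal1, did not include the globins. Alas2, the first enzyme of heme synthesis in red cells, was at 75.3, 62.4 and 89.8 in wild-type replicates 1, 2 and 3 and 205, 106 and 88.4 in mutant replicates 1, 2 and 3, with the same lowest and highest arrays. The other markers did not share this order. Sptb was highest on mutant replicate 1 (45.7) but lowest on mutant replicate 3 (27.8). Tal1 was highest on wild-type replicate 1 (34.7) and lowest on mutant replicate 2 (20.5). Within the groups, all 3 markers had the order of the carriers, a pattern held by 5.72% of all probe sets. In each, wild-type replicate 2 was the lowest of the wild-type arrays and mutant replicate 1 the highest of the mutants. The summed markers ranged from 112 to 154 in the wild-type and from 137 to 276 in the mutant samples. Over all 7 carriers the median difference was 0.037, its sign turned with quantile normalization (-0.045) and median centring (-0.020) and without wild-type replicate 2 (-0.021) or mutant replicate 1 (-0.096), and 4 were higher and 3 lower. The part of red cell content in the values of these carriers was not tested.

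**Figure D4:**
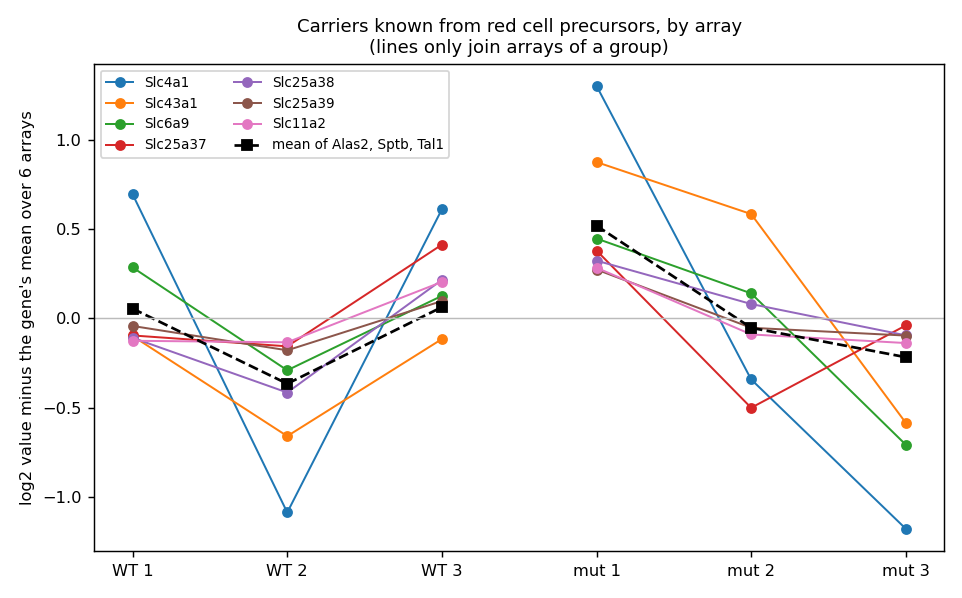
Log2 intensity minus the gene's mean over the 6 arrays (vertical axis) for 7 carriers known from red cell precursors (coloured lines) and the mean of 3 red cell markers (dashed), by array. In every one of the 7 carriers wild-type replicate 2 is the lowest wild-type array and mutant replicate 1 the highest mutant array, and lines only join arrays of a group.

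Muscle carriers did not share one order. Of 7 measured of 9 listed, 5 had higher and 2 lower means, with a median of 0.27 against 0.045 over all probe sets. Without wild-type replicate 1 these were 0.14 and -0.033. Slc38a3, Slc2a4 and Slc25a12, given above, had the highest differences, and Slc8a3 and Slc41a3 the lowest. Slc6a8, which imports creatine, was at 31.2, 39.1 and 42.8 (wild-type) and 44.9, 48.6 and 42.1 (mutant), a difference of 0.27 ± 0.20. Slc25a4 was at 349, 387 and 485 (wild-type) and 410.5, 447 and 496 (mutant), lowest on replicate 1 and highest on replicate 3 of either group. The muscle markers had mean log2 deviations of -0.58, -0.019 and 0.62 in wild-type replicates 1, 2 and 3 and of -0.069, -0.17 and 0.23 in mutant replicates 1, 2 and 3, and their part in these carriers was not tested. Slc6a6, which imports taurine and is abundant in muscle, was at 39.8, 65.6 and 67.3 in wild-type replicates 1, 2 and 3 and 112, 95.4 and 64.9 in mutant replicates 1, 2 and 3. Mutant replicates 1 and 2 lay above all other arrays, and mutant replicate 3 was level with the wild-type replicates 2 and 3. Its difference was 0.66 ± 0.28 (limma adjusted p = 0.667).

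Of 5 carriers of choline and fatty acids 3 had higher and 2 lower means, and 0 passed. Slc44a2, a choline transporter-like protein, was at 73.9, 127 and 119 in wild-type replicates 1, 2 and 3 and 181, 178 and 137 in mutant replicates 1, 2 and 3. All mutant arrays were above all wild-type arrays, and the difference was 0.66 ± 0.25 (limma adjusted p = 0.664). Its relative Slc44a1 was at 0.19 ± 0.23, with overlapping groups. Slc27a4, a fatty acid transport protein that skin, gut and fat express, was at 35.6, 32.7 and 29.7 in wild-type replicates 1, 2 and 3 and 21.1, 25.9 and 23.2 in mutant replicates 1, 2 and 3. All mutant arrays were below all wild-type arrays, with a difference of -0.48 ± 0.19 (adjusted p = 0.667). Slc27a3, of the same family, was at 31.9, 25.2 and 28.2 in wild-type replicates 1, 2 and 3 and 15.5, 18.4 and 25.3 in mutant replicates 1, 2 and 3, with wild-type replicate 2 and mutant replicate 3 almost equal and a difference of -0.55 ± 0.23. It was the lowest difference of all 95 members. Mutant replicates 1 and 2 were under 20, so the filter by level kept Slc27a3 only because wild-type arrays reached 20. Slc27a1, the form of muscle and fat, was at 0.11 ± 0.20.

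Epidermal markers had a similar order of arrays in the wild-type. The 7 measured of 12 listed summed to 1839, 1281 and 58.6 in wild-type replicates 1, 2 and 3 and to 85.1, 483 and 61.1 in mutant replicates 1, 2 and 3. Slc27a4 was likewise highest on replicate 1 and lowest on replicate 3 of the wild-type, and highest on replicate 2 of the mutants. The part of epidermal content in the level of Slc27a4 was not tested. The difference of Slc27a4 was -0.42 when wild-type replicate 1 was left out and -0.56 when mutant replicate 2 was. Only 1 gene of the adipocyte list was measured (of 8).

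Nucleotide sugar carriers bring activated sugars into the Golgi and endoplasmic reticulum. Both measured members had lower means in mutant bone, under every alternative, and neither passed. Slc35a2, which carries UDP-galactose, was at 48.8, 58.6 and 48.8 in wild-type replicates 1, 2 and 3 and 34.3, 36.98 and 48.01 in mutant replicates 1, 2 and 3. Wild-type replicates 1 and 3 lay only just above mutant replicate 3, and the other mutants were lower. The difference was -0.40 ± 0.21 (limma adjusted p = 0.708). Slc35a4 was at -0.16 ± 0.23, with overlapping groups.

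Outside the symbol rule 12 further carrier genes were measured, 10 of them relatives of the same Slc35 family. Of the 12, 5 had higher and 7 lower means, with a median of -0.17 and 0 past the test. Slc35b1, for the carrier that supplies ATP to the endoplasmic reticulum, was at 51.1, 59.7 and 90.2 (wild-type) and 34.9, 42.8 and 57.2 (mutant), a difference of -0.56 ± 0.27. Slc35c2, a Golgi protein tied to fucosylation, was at 45.3, 46.2 and 45.1 (wild-type) and 30.4, 33.2 and 42.1 (mutant), with all mutants below all wild-types (-0.38 ± 0.20). Slc35g1 was the other gene in which the groups did not overlap (-0.24 ± 0.19), and 3.89% of all probe sets had such an order. The sulfate donor carrier Slc35b2, needed for sulfation of cartilage matrix, was at -0.18 ± 0.20 and Slc35b4 at -0.15 ± 0.28. Slc35f5, Slc35e2 and Slc35e3 had higher means, at 0.35, 0.35 and 0.34. The remaining 2 were the mitochondrial sodium-calcium exchanger gene Slc8b1 at 0.51 ± 0.25 and Slc9b2, a sodium-proton antiporter that osteoclasts induce, at 0.40 ± 0.26.

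In the carriers of nucleosides, vitamins, carboxylates and organic ions and the scaffold genes, the groups overlapped in all members but Slco3a1. Among nucleoside and nucleobase carriers, the purine nucleobase carrier Slc43a3 was at 0.35 ± 0.25, the main equilibrative nucleoside carrier Slc29a1 at -0.060 ± 0.20 and the lysosomal Slc29a3 at -0.14 ± 0.20. Slc19a1, which imports reduced folates, was at 0.055 ± 0.20 and Slc23a2, which imports ascorbate, the cofactor of collagen hydroxylation, at 0.066 ± 0.20. Quantile normalization turned the sign of both (-0.0035 and -0.020), and median centring that of Slc19a1 (-0.0014). The citrate importer Slc13a5, which bone cells express, was at 50.4, 87.2 and 76.7 (wild-type) and 72.9, 56.9 and 98.7 (mutant), a difference of 0.094 ± 0.28.

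Among organic ion carriers, Slco3a1 had all mutants below all wild-types by a small margin, at 30.2, 31.9 and 35.4 (wild-type) and 28.4, 29.3 and 27.8 (mutant) (-0.19 ± 0.18). The lysosomal sialic acid carrier Slc17a5 was at 0.25 ± 0.21 and Slc22a17, a receptor for the iron-binding lipocalin 2, at -0.074 ± 0.21. Slco2a1, which takes up prostaglandins, was at 0.081 ± 0.24. The scaffold genes Slc9a3r1 and Slc9a3r2 were at -0.14 ± 0.20 and 0.24 ± 0.20. In these classes 0 members passed, and the smallest adjusted p was 0.751.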

How the data were processed

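RNA of 6 newborn forearm bone samples was amplified and labelled with biotin using Affymetrix kits, per the labels' protocols. The authors deposited 1 intensity per probe set and array on a linear scale. The software, background correction, scaling and filter behind them are not named in the sources used here. All 8997 deposited probe sets reached 20 on at least 3 arrays. Gene names came from the platform annotation of 2016 (1 symbol for 6398 probe sets, several for 576, none for 2023), and the symbols of all 95 members matched the RefSeq gene table of GRCm38.p6 by Entrez identifier.

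After log2 conversion, without other normalization or filtering, 2 group means were fitted by lmFit and eBayes of limma 3.58.1 (R 4.3.3). Tests were two-sided, with Benjamini-Hochberg adjustment over all 8997 probe sets and a threshold of 0.05. Adjusted p-values in the text are limma's. The number of arrays limits the precision. Figures used Python 3.11.15 with matplotlib 3.10.9. The fit was also run on simulated data with equal spread on every array. The real arrays differed in their limma weights, from 0.23 for wild-type replicate 1 to 2.15 for wild-type replicate 3. That run therefore does not cover arrays of unequal quality. Substrate classes followed transporter families.

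The members, classes and lists were chosen with earlier results of these data known. Named were all measured members of 6 groups by tissue or regulation, the 3 of smallest p in each class, members with groups apart by at least 0.5 (log2), and the 2 genes of smallest p in each pathway list. All other members, the genes Phgdh, Psat1, Bsg and Car2, and the carriers outside the symbol rule were named after their values were seen. So were the markers Col1a1, Col1a2, Alpl, Alas2, Sptb, Tal1, Ctsk, Acp5, Mmp9 and Nfatc1, and the glucocorticoid-induced genes Dusp1, Mt2, Lcn2 and Pdk4.

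Alternatives were quantile normalization, median centring, robust variances with an intensity trend, weights for the arrays, leaving out the dimmest 25% of probe sets, the replicate number as a block, averaging the probe sets of each gene, and omitting each array in turn.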

Additional observations from a re-analysis of the deposited data

How the results depend on the processing

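At a threshold of 0.05 for limma's adjusted p, 0 solute carrier genes were called under any alternative run. The lowest value was 0.179 with array weights (Slc1a5) and 0.285 without mutant replicate 3 (Slc43a1). Of all probe sets 4 were called with array weights and 0 to 15 when 1 array was left out (15 without mutant replicate 3, 0 without any other array). Members with groups apart and higher mutants numbered 7 without the dimmest 25% of probe sets, where 67 members were left, and 13 to 29 when 1 array was left out (20 without wild-type replicate 2 and 20 without wild-type replicate 3). Fewer values per group make groups overlap less. Members with groups apart and lower mutants numbered 7 with quantile normalization, 6 with median centring and 3 to 15 when 1 array was left out. The shares of all probe sets were then 6.86%, 6.09% and 6.02% to 12.5%. The median difference of the members lay between 0.013 and 0.18. The same replicate numbers appear in both groups, and the labels speak of littermates without tying the numbers to litters. Deviations from the group means correlated at -0.11, -0.026 and 0.31 for replicates 1, 2 and 3, so the numbers were not taken as pairs. With the replicate number as a block, 0 probe sets and 0 members were called, the median of the members was 0.098, the smallest adjusted p of a member was 0.637 (Slc44a2), and 7 members were higher and 1 lower at an unadjusted p under 0.05. With array weights 616 probe sets were higher and 796 lower at an unadjusted p under 0.05 (12 and 10 members), and without wild-type replicate 1 288 were higher and 307 lower.

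Of the 55 members named by rule 37 kept the sign of their difference under all alternatives, and the causes of the other reversals were not tested. Quantile normalization turned it for Slc11a2 (-0.045), Slc19a1 (-0.0035), Slc1a4 (-0.079), Slc23a2 (-0.020) and Slc4a2 (-0.054), and median centring for Slc11a2 (-0.020), Slc19a1 (-0.0014), Slc1a4 (-0.047) and Slc4a2 (-0.052). Array weights turned it for Slc11a2 (-0.072), Slc13a5 (-0.20), Slc1a4 (-0.020), Slc20a1 (-0.23), Slc4a2 (-0.048) and Slc6a9 (0.054). Leaving out 1 array turned the sign for Slc11a2 (from -0.10 to 0.15), Slc13a5 (from -0.14 to 0.29), Slc16a1 (from -0.16 to 0.12), Slc16a3 (from -0.049 to 0.29), Slc19a1 (from -0.063 to 0.15), Slc1a4 (from -0.14 to 0.19), Slc20a1 (from -0.37 to 0.34), Slc22a17 (from -0.21 to 0.023), Slc23a2 (from -0.039 to 0.17), Slc25a37 (from -0.32 to 0.12), Slc25a39 (from -0.033 to 0.15), Slc29a1 (from -0.19 to 0.045), Slc39a14 (from -0.018 to 0.54), Slc4a1 (from -0.83 to 0.41), Slc4a2 (from -0.10 to 0.082), Slc6a9 (from -0.32 to 0.25), Slc7a1 (from -0.35 to 0.073) and Slc7a5 (from -0.10 to 0.66). The precision is limited by 3 arrays per group, and 20 of 95 members were under an intensity of 20 on some array. What size of difference these members could show was not measured.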

Other observations

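Proteins that work beside solute carriers did not lean one way. Of 30 listed genes for pumps, channels, chaperones and transporters with other symbols 11 were measured, 6 with higher and 5 with lower means in the mutants, a median difference of 0.11 and 0 past the test. Ank, for a membrane protein that lets pyrophosphate, a restraint on mineral formation, reach the matrix, was at 53.4, 70.3 and 83.3 in wild-type replicates 1, 2 and 3 and 135, 123 and 69.2 in mutant replicates 1, 2 and 3. Mutant replicates 1 and 2 lay above every wild-type array, and the difference was 0.63 ± 0.29 (limma adjusted p = 0.686). Xpr1, for the exporter of phosphate from cells, was at 18.7, 30.3 and 27.97 in wild-type replicates 1, 2 and 3 and 42.2, 34.8 and 31.3 in mutant replicates 1, 2 and 3. All mutant values were above all wild-type values by a narrow margin, with a difference of 0.51 ± 0.24 (adjusted p = 0.686). Bsg, the partner that lactate carriers need to reach the cell surface, was at -0.18 ± 0.23, and Car2, the carbonic anhydrase of osteoclasts and red cells, at -0.31 ± 0.40. Both overlapped between the groups.

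Over the 6 osteoclast, red cell, muscle, macrophage, epidermis and endothelium marker lists 0 genes passed. Endothelial markers (8 of 10 listed) summed to 239.9 to 339.9 in the wild-type and to 319.5 to 358 in the mutant samples, and chondrocyte markers to 5804 to 8745 and to 7772 to 8938. Osteoblast and osteocyte markers summed to 11332 to 14251 and to 13156 to 14447. Wild-type replicate 1 had the lowest sum in each of these 3 lists.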
